A study of Mus musculus with 6 samples.

Results

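The cathepsins are the main proteases of lysosomes, and 10 of their genes, Ctsa, Ctsb, Ctsc, Ctsd, Ctse, Ctsh, Ctsk, Ctsl, Ctss and Ctsz, were followed in colon macrophages of mice with and without Gsdmd. They were chosen by gene symbol, not by their values, and make up 10 of the 17067 genes in the deposited tables. The 3 Gsdmd-/- samples and the 3 wild-type (WT) samples came from colons of 10-week-old C57BL/6 mice, where macrophages were taken by sorting for CD45, CD11b and the macrophage surface protein that Adgre1 encodes, and all mice of both groups had colitis from dextran sulfate sodium (DSS), a polymer in drinking water that injures the gut lining. Gsdmd encodes gasdermin D, the pore-forming protein of pyroptosis, an inflammatory form of cell death. The labels do not say how the Gsdmd allele was made, what dose of DSS was given, or whether each sample was a different mouse. The p-values therefore cover only sample-to-sample spread, which may be technical.

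Cathepsins are made as inactive precursors, carried to lysosomes on mannose 6-phosphate receptors and cut to their active form at low pH. In macrophages they digest engulfed material, trim antigens and the invariant chain for MHC class II, and process endosomal Toll-like receptors. Cathepsin B that leaks from damaged lysosomes has been linked to activation of the NLRP3 inflammasome, which lies upstream of gasdermin D.

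The 10 genes encode enzymes of 3 catalytic classes. Ctsb, Ctsc, Ctsh, Ctsk, Ctsl, Ctss and Ctsz encode papain-type cysteine proteases, Ctsd and Ctse encode aspartic proteases of the pepsin type, and Ctsa encodes a serine carboxypeptidase. The stretches of coding sequence around a catalytic residue are shown because they are what sets the classes apart, and they are GENCODE M21 sequence of GRCm38, 5′ to 3′ on the coding strand. Capitals mark the codon of the catalytic cysteine in the first 5, of a catalytic aspartate in Ctsd, and of the catalytic serine in Ctsa:
Ctsb: tcctgcggctctTGTtgggcatttggg
Ctsl: cagtgcgggtctTGTtgggcgtttagc
Ctss: tcttgtggtgccTGCtgggctttcagt
Ctsz: tactgtggttccTGCtgggcccacggc
Ctsc: tcttgtggaagcTGCtactcatttgcc
Ctsd: acagtcgtctttGATactggctcctct
Ctsa: ctgacaggagagAGCtatgctggcatc
The marked codons lie in exon 4 of 10 of Ctsb (chr14:63135717-63135719, plus strand), exon 5 of 8 of Ctsl (chr13:64367075-64367077, minus strand), exon 5 of 8 of Ctss (chr3:95545348-95545350, plus strand) and exon 2 of 6 of Ctsz (chr2:174438196-174438198, minus strand). In Ctsc the codon is in exon 6 of 7 (chr7:88308027-88308029, plus strand), in Ctsd in exon 3 of 9 (chr7:142383479-142383481, minus strand) and in Ctsa in exon 7 of 16 (chr2:164835243-164835245, plus strand). The longest run of identical bases between the coding sequences of any 2 of the 10 genes was 17 bases, between Ctsk and Ctsl and between Ctsk and Ctss.

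Values are FPKM, fragments scaled by transcript length and sequencing depth, and they add up to 551502 to 565388 per sample in Gsdmd-/- and 476271 to 485411 in WT. The steps between low values implied about 19.5 M fragments in each Gsdmd-/- sample and 19.1 M to 19.8 M in WT. Gsdmd was at 28.5, 29.0 and 29.7 FPKM in Gsdmd-/- samples and at 97.7, 99.4 and 97.4 FPKM in WT samples, lower in every Gsdmd-/- sample but still listed well above 0. Of the 10 macrophage markers checked, all 10 passed the filter below, with summed levels of 8912 to 8983 FPKM in Gsdmd-/- and 8062 to 8553 FPKM in WT. Lyz2 made up the largest part of the sum, at 5469 ± 22 FPKM in Gsdmd-/- and 5008 ± 174 FPKM in WT. Of these markers 3 rose and 6 fell as deposited (40.6% and 36.9% of all genes), and 2 and 8 in TPM (23.9% and 49.7%). The numbers were 1 and 7 after quantile normalization (41% and 36.2%), and 1 and 9 on the corrected scale described below (30.1% each). The sort antigen genes Ptprc (CD45), Itgam (CD11b) and Adgre1 fell as deposited, with log2 changes of -0.67, -0.94 and -0.43. They also fell in TPM and on the corrected scale. Genes were tested with limma on log2(FPKM + 1), and a gene is said to have risen or fallen at an adjusted p under 0.05. Gsdmd-/- macrophages had 40.6% of the 10005 tested genes higher and 36.9% lower by this rule. Across 9852 genes the log2 change was correlated with transcript length (Spearman rho -0.651) and with GC content (0.495), as a description of genes that are not independent. Values are therefore also given on a corrected scale, from which a smooth trend over length and GC was taken out, and after rescaling to TPM, where each sample sums to the same total.

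Of the cathepsin genes, 9 passed the filter of at least 1 FPKM in at least 3 samples, and Ctse did not. Of the 9 tested, 6 rose (Ctsa, Ctsb, Ctsd, Ctsh, Ctsl and Ctsz), 1 fell (Ctsc) and 2 did not pass the test (Ctsk and Ctss), beside backgrounds of 40.6% and 36.9%. The median log2 change of the 9 was 0.35, beside 0.03 over all tested genes. In TPM, 5 rose and 3 fell, where 23.9% of all genes rose and 49.7% fell, and the medians were 0.13 and -0.17. On the corrected scale, 4 rose and 4 fell, where 30.1% of all genes rose and 30.1% fell, and the medians were -0.05 and 0.00. After quantile normalization 2 rose and 3 fell (41% and 36.2% of all genes), and with median ratio scaling 6 rose and 2 fell (38% and 39.4%). Ctsa, Ctsb, Ctsd and Ctsl rose, and Ctsc fell, as deposited, in TPM and on the corrected scale. The 3 samples of each group did not overlap for the 6 genes that rose, higher in Gsdmd-/- as 41.2% of all genes were, nor for Ctsc and Ctss, lower in Gsdmd-/- as 38.3% were. A bulk sample cannot tell fewer cells of a type apart from less RNA per cell.

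**Figure D1:**
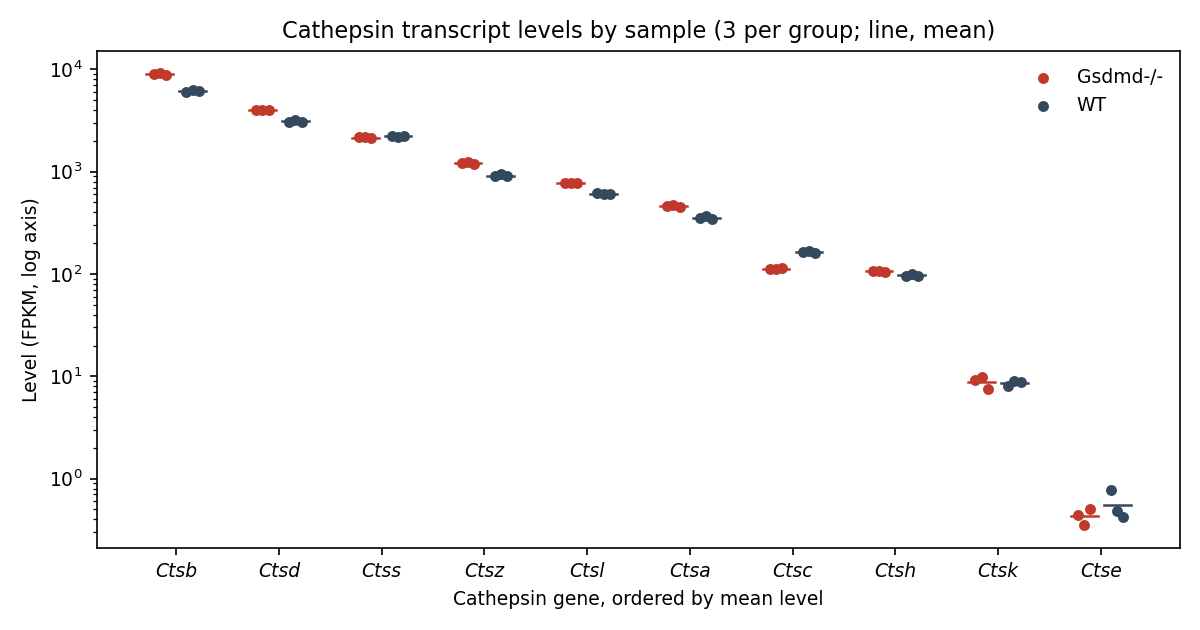
Level of each of the 10 cathepsin genes in FPKM (log axis), Gsdmd-/- samples in red on the left and WT samples in dark blue on the right of each pair, 3 points and a line at the mean per group. Ctsb has the highest level in both groups, at 8999 FPKM in Gsdmd-/- and 6200 FPKM in WT, and Ctse is under 1 FPKM in all 6 samples.

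Ctsb, which encodes a cysteine protease with endopeptidase and dipeptidyl carboxypeptidase activity (NCBI gene 13030, chromosome 14, 63122462 to 63145923 in GRCm38.p6), had the highest level of the 10. It was at 9012, 9150 and 8835 FPKM in Gsdmd-/- samples, against 6073, 6339 and 6187 FPKM in WT samples. All Gsdmd-/- samples were above all WT samples, and the gene ranked 3 of 17067 by mean level in Gsdmd-/- and 4 in WT. Its mean was 8999 ± 158 FPKM in Gsdmd-/- and 6200 ± 134 FPKM in WT (SD, n = 3 each), a ratio of 1.45. It rose by 0.54 (log2 units, SE 0.0228, limma, adjusted p = 2.6e-09). The change was 0.32 in TPM and 0.83 on the corrected scale, and it passed the test on both scales. Its exons overlap those of Fdft1, a gene of squalene synthesis on the other strand, over 774 bases, and whether reads were counted by strand is not known. Fdft1 was at 13.9 ± 0.219 FPKM in Gsdmd-/- and 9.54 ± 0.0839 FPKM in WT, and rose by 0.50 (adjusted p = 8.75e-07). The part of shared reads in the Ctsb value was not tested.

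Ctsd, which encodes the main aspartic protease of lysosomes (gene 13033, chromosome 7, 142375910 to 142387827), was at 4031, 4042 and 4027 FPKM in Gsdmd-/- samples, against 3083, 3180 and 3062 FPKM in WT samples. The groups were well apart, and the Gsdmd-/- samples lay close together. It rose by 0.38 (log2 units, SE 0.0216, adjusted p = 2.02e-08). Its change was smaller in TPM, at 0.15, and on the corrected scale, at 0.09, and passed on both. After quantile normalization it was 0.00 and did not pass (adjusted p = 1). Ctsd shares 808 exonic bases with Gm49369, an annotated protein-coding gene on the same strand, so its value could hold reads of both.

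Ctsl, which encodes an endopeptidase that also cuts the invariant chain in some cells (gene 13039, chromosome 13, 64361890 to 64370772), was at 781.0, 778.8 and 774.5 FPKM in Gsdmd-/- samples, against 613.5, 610.9 and 607.3 FPKM in WT samples. Samples of a group lay close together and the groups were apart. It rose by 0.35 (log2 units, SE 0.022, adjusted p = 4.12e-08), and the change was the same, 0.35, on the corrected scale. In TPM it was 0.13. After quantile normalization it turned to -0.10 and passed in that direction (adjusted p = 0.000954). An annotated antisense gene, Gm47123, shares 1742 exonic bases with Ctsl, and Gm49230, a processed pseudogene on the same strand, shares 395, so reads of the pseudogene could be counted with Ctsl at any strand setting.

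Ctsa encodes protective protein, which stabilises the lysosomal sialidase Neu1 and the galactosidase Glb1 as well as acting as a carboxypeptidase (gene 19025, chromosome 2, 164832872 to 164841032). It was at 463.9, 472.3 and 454.1 FPKM in Gsdmd-/- samples, against 351.1, 364.8 and 343.7 FPKM in WT samples, with no overlap. It rose by 0.39 (log2 units, SE 0.0288, adjusted p = 1.43e-07), by 0.17 in TPM and by 0.30 on the corrected scale. Its exons overlap the opposite-strand genes Pltp over 495 bases and Neurl2 over 324 bases. Pltp, a lipid transfer protein gene, was at 269 ± 10.3 FPKM in Gsdmd-/- and 259 ± 6.58 FPKM in WT and did not pass the test as deposited (adjusted p = 0.158). Pltp fell in TPM (-0.17, adjusted p = 7.73e-05) and on the corrected scale (-0.34, adjusted p = 1.22e-06).

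Ctsz, which encodes a carboxypeptidase also called cathepsin X (gene 64138, chromosome 2, 174427494 to 174439039), was at 1227, 1248 and 1201 FPKM in Gsdmd-/- samples, against 907.4, 946.9 and 898.0 FPKM in WT samples. As deposited the groups did not overlap and it rose by 0.42 (log2 units, SE 0.0269, adjusted p = 4.78e-08), with 0.20 in TPM. This call depended on the scale. On the corrected scale it was -0.05 (adjusted p = 0.0322), and after quantile normalization it did not pass (adjusted p = 0.864). Its GC content of 57.3% was the highest of the 10 genes.

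Ctsh, which encodes an aminopeptidase (gene 13036, chromosome 9, 90054267 to 90076095), was at 107.7, 107.7 and 104.1 FPKM in Gsdmd-/- samples, against 95.5, 101.0 and 96.5 FPKM in WT samples. The groups lay near each other without overlap. Its log2 change of 0.12 passed as deposited (SE 0.0319, adjusted p = 0.00362). The direction turned in TPM, to -0.10 (adjusted p = 0.0121), and on the corrected scale, to -0.13 (adjusted p = 0.00142), so no direction holds across scales.

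**Figure D2:**
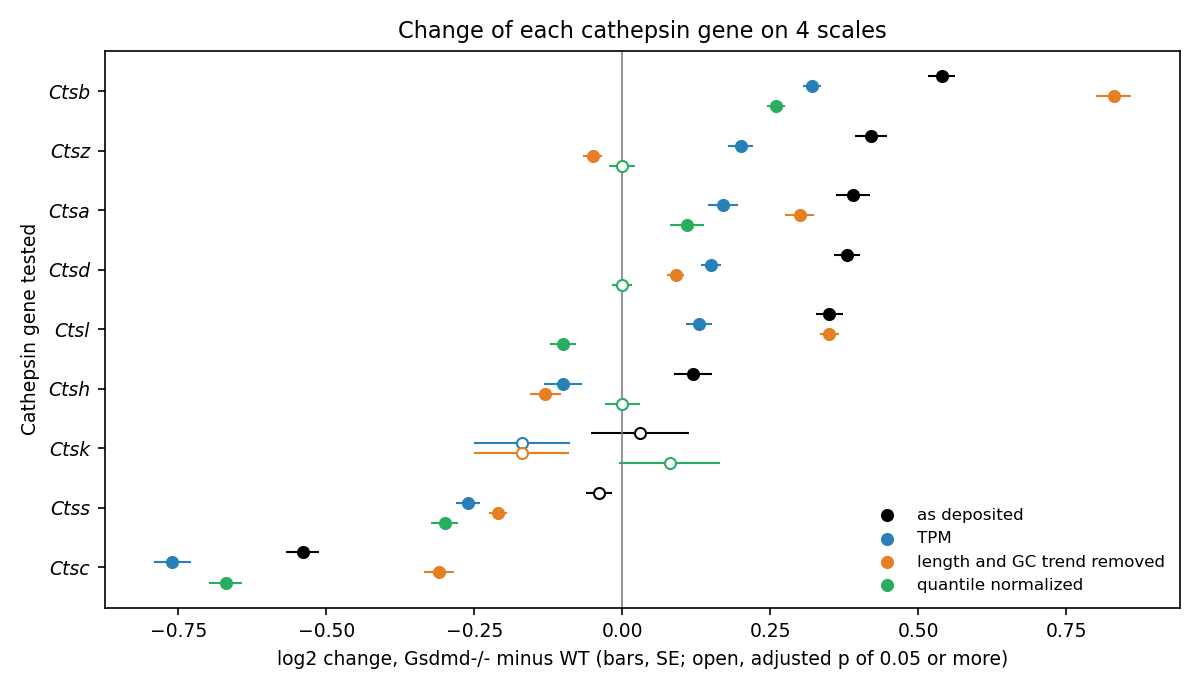
Log2 change of the 9 tested cathepsin genes, Gsdmd-/- minus WT, with SE, on 4 scales in 4 colours, filled where the adjusted p is under 0.05. Ctsb lies right of 0 and Ctsc left of 0 on all 4 scales, from 0.26 to 0.83 for Ctsb and from -0.76 to -0.31 for Ctsc, while Ctsh, Ctsk, Ctsl and Ctsz lie on both sides of 0.

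Ctsc was the cathepsin gene that fell as deposited. It encodes dipeptidyl peptidase I, which removes the activation dipeptides of serine proteases in granulocytes and cytotoxic lymphocytes (gene 13032, chromosome 7, 88278024 to 88315861). It was at 112.7, 111.3 and 115.1 FPKM in Gsdmd-/- samples, against 165.2, 167.3 and 161.6 FPKM in WT samples. All Gsdmd-/- samples were below all WT samples. Its mean was 113 ± 1.94 FPKM in Gsdmd-/- and 165 ± 2.88 FPKM in WT (SD, n = 3 each), and it fell by 0.54 (log2 units, SE 0.0283, adjusted p = 1.02e-08). The change was -0.76 in TPM and -0.31 on the corrected scale, and it fell under all 16 alternatives tried. Among markers of neutrophils, cells whose proteases Ctsc activates, Elane was not analysed here, Mpo was at or under 0.02 FPKM in all samples and 7 of 9 listed markers were under 1 FPKM throughout. The summed neutrophil level was 4.34 to 6.69 FPKM in Gsdmd-/- and 2.73 to 4.13 FPKM in WT. Cxcr2, at 3.28 ± 0.448 FPKM in Gsdmd-/- and 2.39 ± 0.29 FPKM in WT, was the only neutrophil marker tested. It rose by 0.33 as deposited (adjusted p = 0.00541) and by 0.51 on the corrected scale, but did not pass in TPM (adjusted p = 0.0998). S100a8, at 1.19 ± 0.641 FPKM in Gsdmd-/- and 0.417 ± 0.245 FPKM in WT, overlapped between the groups.

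The 3 tested genes outside the family whose log2 level followed Ctsc most closely were Pfkfb3, Slc26a2 and Mtf1, with a Pearson r of 0.9995 for Slc26a2 and 0.9994 for Mtf1, and a higher one for Pfkfb3, over the 6 samples. The 6 points fall into the 2 groups, so r describes likeness over that difference and is given without a p. Pfkfb3, a regulator of glycolysis, was at 16.5 ± 0.394 FPKM in Gsdmd-/- and 26.1 ± 0.567 FPKM in WT. The likeness is that of values as deposited. On the corrected scale Pfkfb3 (-0.60) and Slc26a2 (-0.46) fell as Ctsc did, but Mtf1 turned from -0.21 to 0.24 and rose (adjusted p = 0.00489).

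Ctss encodes the protease that degrades the invariant chain in macrophages and dendritic cells (gene 13040, chromosome 3, 95526786 to 95556405). It was at 2160, 2169 and 2117 FPKM in Gsdmd-/- samples, against 2230, 2175 and 2231 FPKM in WT samples. The ranges were nearly in contact, and the log2 change of -0.04 did not pass the test (SE 0.0221, adjusted p = 0.101). It was -0.26 in TPM (adjusted p = 1.94e-08) and -0.21 on the corrected scale (adjusted p = 1.12e-06), and it fell on both of these scales. Ctss was thus level or lower in Gsdmd-/-, depending on the scale, and rose on none.

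Ctsk, the collagen-degrading cathepsin of osteoclasts and fibroblasts (gene 13038, chromosome 3, 95499210 to 95509387), was at 9.27, 9.85 and 7.55 FPKM in Gsdmd-/- samples, against 8, 9.02 and 8.83 FPKM in WT samples. The groups overlapped, and the log2 change of 0.03 did not pass (SE 0.0834, adjusted p = 0.717). Of 9 fibroblast markers 7 were tested and all 7 rose, beside 40.6% of all genes. Their list had summed levels of 88.3 to 90.4 FPKM in Gsdmd-/- and 32.6 to 34.3 FPKM in WT. Lum and Pdgfra were under 1 FPKM in all samples. Of 6 osteoclast markers 3 were tested. As deposited Acp5 and Mmp9 rose and Dcstamp fell, beside 40.6% and 36.9% of all genes. On the corrected scale Acp5 was -0.02 and did not pass (adjusted p = 0.689). The part of these markers in the Ctsk level was not tested.

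Ctse, an aspartic protease gene known from stomach and lymphoid tissue (gene 13034, chromosome 1, 131638314 to 131675507), was at 0.44, 0.35 and 0.51 FPKM in Gsdmd-/- samples, against 0.77, 0.48 and 0.42 FPKM in WT samples. The groups overlapped. At the implied depth these values stand for about 14.5 to 21.1 fragments in Gsdmd-/- and 17.2 to 32.4 in WT, and with no filter on low values the log2 change of -0.11 did not pass (SE 0.0924, adjusted p = 0.367).

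By level, the order of the 10 genes was the same in both groups, namely Ctsb, Ctsd, Ctss, Ctsz, Ctsl, Ctsa, Ctsc, Ctsh, Ctsk and Ctse. No neighbours in this order had overlapping ranges within a group, and the closest pair in Gsdmd-/- samples was Ctsc and Ctsh, with a ratio of 1.06, against 1.69 in WT. Ctsd stood at 1.88 times Ctss in Gsdmd-/- samples, against 1.41 times in WT, where this was the closest pair. Together the 10 genes summed to 17905, 18089 and 17637 FPKM in Gsdmd-/- samples, against 13527, 13895 and 13597 FPKM in WT samples. As a share of the sum of all values this was 3.19 ± 0.0114% in Gsdmd-/- and 2.85 ± 0.012% in WT (SD, n = 3 each). The shares did not overlap (two-sided exact permutation test, p = 0.1, the smallest that 3 samples against 3 allow). Without Ctsb the share was 1.59 ± 0.00919% in Gsdmd-/- and 1.56 ± 0.00771% in WT.

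The summed cathepsin level held more Ctsb and less Ctss and Ctsc in every Gsdmd-/- sample than in any WT sample. Ctsb held 50.3, 50.6 and 50.1% of the summed level in Gsdmd-/- samples, against 44.9, 45.6 and 45.5% in WT samples. Ctss held 12.1, 12 and 12% in Gsdmd-/- samples, against 16.5, 15.7 and 16.4% in WT samples. The share of Ctsc was 0.632 ± 0.0189% in Gsdmd-/- and 1.2 ± 0.0164% in WT. Ctsd, at 22.6 ± 0.249% in Gsdmd-/- and 22.7 ± 0.189% in WT, and Ctsa, at 2.59 ± 0.018% and 2.58 ± 0.0497% in the same order, overlapped between the groups, as did Ctsz. For the other 7 genes, Ctsb, Ctsc and Ctss among them, the shares did not overlap (two-sided exact permutation test, p = 0.1 each, 0.143 adjusted over the 10 genes). All shares have the same denominator, of which Ctsb is a large part, so they are not independent. A share can fall because the sum rose, and Ctsk and Ctse, among the 7, overlapped in FPKM. How many of all genes would separate as a share of this sum was not computed. Per 100 FPKM of Ctsb there were 23.9 ± 0.149 FPKM of Ctss in Gsdmd-/- and 35.7 ± 1.24 FPKM in WT, and 1.26 ± 0.0436 FPKM of Ctsc in Gsdmd-/- and 2.66 ± 0.0564 FPKM in WT.

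**Figure D3:**
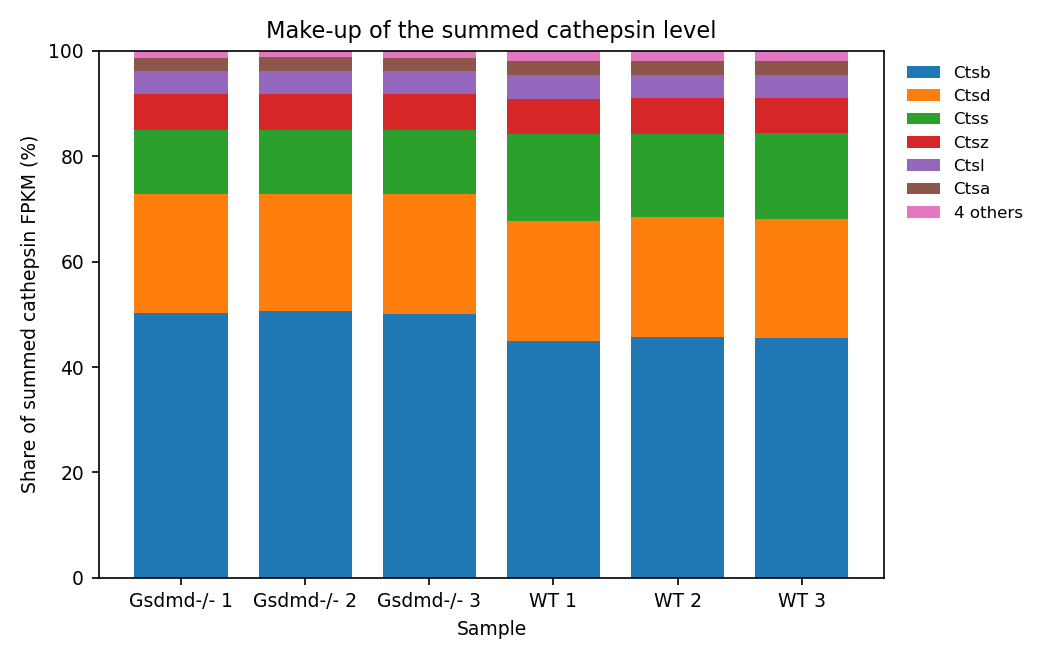
Share of each cathepsin gene in the summed FPKM of the 10 genes (%), 1 stacked bar per sample, Gsdmd-/- samples left of WT samples, with Ctsc, Ctse, Ctsh and Ctsk joined as 4 others. The Ctsb part covers 50.1 to 50.6% in Gsdmd-/- and 44.9 to 45.6% in WT, and the Ctss part 12 to 12.1% and 15.7 to 16.5% in the same order.

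Promoters are shown for Ctsa, Ctsd and Ctsl, which rose as deposited, in TPM and on the corrected scale but of which Ctsa alone also rose after quantile normalization, and for Ctsc, which fell on all 4 of these scales, because genes of lysosomal enzymes often carry CACGTG, the core of the element bound by the factors Tfeb, Tfe3 and Mitf. They are RefSeq sequence of GRCm38.p6, 250 bases before to 50 bases after an annotated start. The Ctsa and Ctsl windows lie wholly within the gene spans given above, so they are not sequence upstream of the gene. All promoters read 5′ to 3′ on the gene's strand, with CACGTG in capitals. They lie at chr7:142387778-142388077 (minus strand) for Ctsd, chr2:164833523-164833822 (plus strand, the downstream of 2 annotated starts) for Ctsa, chr13:64370471-64370770 (minus strand) for Ctsl and chr7:88277835-88278134 (plus strand) for Ctsc:
Ctsd: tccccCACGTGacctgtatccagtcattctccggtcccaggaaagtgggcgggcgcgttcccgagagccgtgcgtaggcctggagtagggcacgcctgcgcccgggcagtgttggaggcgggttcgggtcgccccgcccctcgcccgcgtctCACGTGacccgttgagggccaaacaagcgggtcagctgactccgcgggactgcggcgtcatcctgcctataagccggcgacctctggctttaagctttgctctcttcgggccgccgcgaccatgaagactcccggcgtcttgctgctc
Ctsa: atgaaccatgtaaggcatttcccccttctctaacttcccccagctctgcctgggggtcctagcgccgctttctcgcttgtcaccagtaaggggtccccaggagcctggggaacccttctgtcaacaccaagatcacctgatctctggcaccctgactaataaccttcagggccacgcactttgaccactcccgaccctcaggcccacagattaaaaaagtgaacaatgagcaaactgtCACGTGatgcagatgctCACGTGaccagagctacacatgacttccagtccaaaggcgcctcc
Ctsl: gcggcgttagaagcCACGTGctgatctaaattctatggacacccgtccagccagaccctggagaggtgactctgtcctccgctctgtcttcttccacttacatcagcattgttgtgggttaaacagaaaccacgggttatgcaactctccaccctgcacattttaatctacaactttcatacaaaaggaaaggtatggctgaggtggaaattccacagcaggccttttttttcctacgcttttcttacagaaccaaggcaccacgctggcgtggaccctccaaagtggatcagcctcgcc
Ctsc: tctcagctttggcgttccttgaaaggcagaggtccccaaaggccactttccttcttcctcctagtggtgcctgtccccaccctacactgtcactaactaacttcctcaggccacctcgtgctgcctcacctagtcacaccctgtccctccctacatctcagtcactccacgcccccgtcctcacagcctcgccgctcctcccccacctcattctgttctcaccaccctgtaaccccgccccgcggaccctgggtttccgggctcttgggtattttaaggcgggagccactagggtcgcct
The table held 8 promoters of 7 of the 10 genes, of Ctsa, Ctsc, Ctsd, Ctsk, Ctsl, Ctss and Ctsz. CACGTG, which reads the same on both strands, was present in 3 of the 8, with 2 copies in Ctsd, 2 in the Ctsa promoter shown and 1 in Ctsl. The other Ctsa promoter and those of Ctsc, Ctsk, Ctss and Ctsz held no copy. Of these genes Ctsz also rose as deposited and in TPM, but not on the corrected scale. Ctsb, which rose on all 3 of these scales, had no promoter entry. Whether the motif goes with the direction of change was not tested. Over all 32851 promoters of this length, 7.15% held CACGTG and 0.594% held 2 or more copies. A match is a description of the sequence, and binding was not measured.

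Among the factors that bind this element, Mitf fell, at 16.1, 16.7 and 16.9 FPKM in Gsdmd-/- samples, against 32.5, 30.8 and 32.7 FPKM in WT samples (log2 change -0.91, SE 0.0423, adjusted p = 4.5e-09, and -0.78 on the corrected scale). Tfe3 fell by 0.16 on the log2 scale (adjusted p = 0.0023). Tfec, the macrophage member of that family, rose by 0.13 (adjusted p = 0.00752) and was -0.09 in TPM, where it did not pass (adjusted p = 0.0631). Tfeb, at 3.30 ± 0.289 FPKM in Gsdmd-/- and 3.30 ± 0.356 FPKM in WT, did not pass as deposited (adjusted p = 0.981) but fell by 0.33 on the corrected scale (adjusted p = 0.00225). Zkscan3, a repressor of lysosomal genes, fell by 0.22 (adjusted p = 0.0253). That call was lost on the corrected scale (adjusted p = 0.0793), after quantile normalization (0.158), with no filter (0.0619) and without Gsdmd-/- replicate 1 (0.077), Gsdmd-/- replicate 3 (0.0807), WT replicate 2 (0.0767) or WT replicate 3 (0.115). Of the 5 factors 1 rose and 3 fell as deposited, with a median of -0.16, beside 40.6% and 36.9% of all genes.

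Few other cathepsin genes reached the filter. Of 13 listed, 6 could be analysed and 2, Ctsf and Ctso, were tested. Ctso, a little-studied cysteine protease gene, fell by 0.22 on the log2 scale (adjusted p = 0.00548), and was 0.12 on the corrected scale, where it did not pass (adjusted p = 0.0738). Ctsf, at 2.69 ± 0.444 FPKM in Gsdmd-/- and 2.41 ± 0.276 FPKM in WT, did not pass (adjusted p = 0.309). Ctsg, a granule protease of neutrophils, was at or under 0.05 FPKM in every sample, and Ctsw, of cytotoxic lymphocytes, at or under 0.23 FPKM.

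Of 9 tested genes listed as cathepsin inhibitors, 6 rose and 3 fell as deposited, with a median log2 change of 0.42, beside 40.6% and 36.9% of all genes. The 3 that fell were the serpin genes Serpinb6b, Serpinb8 and Serpinb9, and whether their products act on cathepsins was not tested. Serpinb8 overlapped between the groups (adjusted p = 0.0377) and turned to 0.17 on the corrected scale, where it did not pass (adjusted p = 0.068). After quantile normalization 4 rose and 3 fell (41% and 36.2%), and on the corrected scale 4 rose and 4 fell (30.1% each). Cst3, which encodes the secreted inhibitor cystatin C, was at 1230, 1241 and 1209 FPKM in Gsdmd-/- samples, against 908.1, 942.1 and 904.2 FPKM in WT samples, and rose by 0.42 (adjusted p = 2.46e-08). On the corrected scale it turned to -0.20 (adjusted p = 2.9e-06). Serpina3g, a serpin that inhibits cathepsins in the cytosol and nucleus, was at 493 ± 5.28 FPKM in Gsdmd-/- and 363 ± 6.53 FPKM in WT and rose by 0.44 (adjusted p = 1.9e-08), and by 0.24 after correction. Serpina3f and Serpinb6a rose by 0.46 and 0.45, and by 0.39 and 0.25 after correction. Serpina3f and Serpina3g belong to a cluster of closely related copies, so reads may be split between them. As deposited, Cst3 and the cytosolic inhibitor gene Cstb together had 18.1 ± 0.184 FPKM per 100 FPKM of the 7 cysteine cathepsins in Gsdmd-/- and 18.4 ± 0.268 FPKM in WT. These values overlapped (two-sided exact permutation test, p = 0.2). Cstb rose by 0.31 as deposited (adjusted p = 5.01e-07) but turned to -0.17 on the corrected scale (adjusted p = 3e-05), as Cst3 turned. The ratio was not computed on that scale, and it is not free of the length and GC trend.

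Partners and activating proteases included Lgmn, which encodes the legumain that cuts several cathepsins into 2 chains, and the genes of the Ctsa complex. Of 9 tested, 6 rose and 2 fell as deposited (40.6% and 36.9% of all genes), with a median of 0.22. In TPM the median was -0.00, and 1 rose and 3 fell (23.9% and 49.7% of all genes). Quantile normalization gave 4 and 4 (41% and 36.2%), and the corrected scale 3 and 2 (30.1% each). Lgmn was at 665 ± 3.78 FPKM in Gsdmd-/- and 587 ± 6.01 FPKM in WT and rose by 0.18 (adjusted p = 1.58e-05), but did not pass after correction (adjusted p = 0.546) or in TPM (adjusted p = 0.101). After quantile normalization Lgmn turned to -0.26 and passed in that direction (adjusted p = 1.22e-06). Psap, the gene of the saposin precursor that Ctsd cuts, rose by 0.24 (adjusted p = 1.98e-06), and Galns, a lysosomal sulfatase gene, by 0.48 (adjusted p = 2.42e-06). Both also rose after correction, but Psap did not pass in TPM (0.02, adjusted p = 0.509) or after quantile normalization (0.04, adjusted p = 0.166). Dpp7, a dipeptidyl peptidase gene, rose by 0.25, did not pass in TPM (adjusted p = 0.395) and was -0.07 after correction (adjusted p = 0.0497).

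Of 13 tested genes that sort enzymes to lysosomes, 3 rose and 6 fell as deposited, with a median of -0.12, beside 40.6% and 36.9% of all genes. In TPM 1 rose and 10 fell (23.9% and 49.7%), and on the corrected scale 4 rose and 5 fell (30.1% each). Igf2r, the large mannose 6-phosphate receptor, was at 12.2, 11.8 and 13.8 FPKM in Gsdmd-/- samples, against 25.5, 22.5 and 24.2 FPKM in WT samples, and fell by 0.89 (adjusted p = 9.98e-08). Gnptab, which encodes the enzyme that makes the mannose 6-phosphate tag, was at 22.4, 22.4 and 23.8 FPKM in Gsdmd-/- samples, against 41.3, 41.6 and 41.4 FPKM in WT samples, and fell by 0.83 (adjusted p = 4.43e-09). In both genes all Gsdmd-/- samples were below all WT samples, and both fell on the corrected scale, by 0.46 and 0.45. The retromer genes Vps35 and Vps26a, whose complex returns sorting receptors from endosomes, fell by 0.41 and 0.37, and by 0.08 and 0.17 after correction.

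A list of cathepsin substrates and of helpers in antigen presentation and nucleic acid sensing had 16 tested genes. Among them were MHC class II chains, the class II transactivator gene Ciita and the receptor chaperone gene Unc93b1. As deposited 8 of the 16 were higher and 8 lower (40.6% and 36.9% of all genes), with a median of 0.00. In TPM 2 rose and 11 fell (23.9% and 49.7%), and on the corrected scale 0 of 15 rose and 12 fell (30.1% each). The 5 receptor genes Tlr3, Tlr7, Tlr8, Tlr9 and Tlr13 all fell, also after correction. Tlr9, a sensor of DNA that cathepsins cut into its active form, was at 6.12, 6.32 and 6.53 FPKM in Gsdmd-/- samples, against 19.1, 18.6 and 18.5 FPKM in WT samples (log2 change -1.43, SE 0.0479, adjusted p = 7.21e-10). Tlr3 and Tlr8 fell by 1.08 and 0.95, and Sppl2a, the gene of the membrane protease that removes the last fragment of the invariant chain, by 0.89. Cd74, the invariant chain that Ctss degrades, was at 1730 ± 60.9 FPKM in Gsdmd-/- and 1472 ± 43.1 FPKM in WT, with a log2 change of 0.23 as deposited, 0.01 in TPM and -0.24 after correction.

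Of 10 matrix substrates of secreted cathepsins 7 were tested and all 7 rose, with a median of 1.0, beside 40.6% of all genes. In TPM and on the corrected scale 7 of 7 rose as well (23.9% and 30.1% of all genes). Bgn, a matrix proteoglycan gene, was at 33.0 ± 0.404 FPKM in Gsdmd-/- and 11.2 ± 0.601 FPKM in WT (log2 change 1.48, adjusted p = 5.04e-10). The collagen genes Col1a1 and Col1a2 rose by 1.43 and 1.0 and Sparc by 1.31. Col1a1, Col1a2, Col3a1, Dcn, Bgn and Sparc are also among the fibroblast markers counted above, so these are not separate observations.

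**Figure D4:**
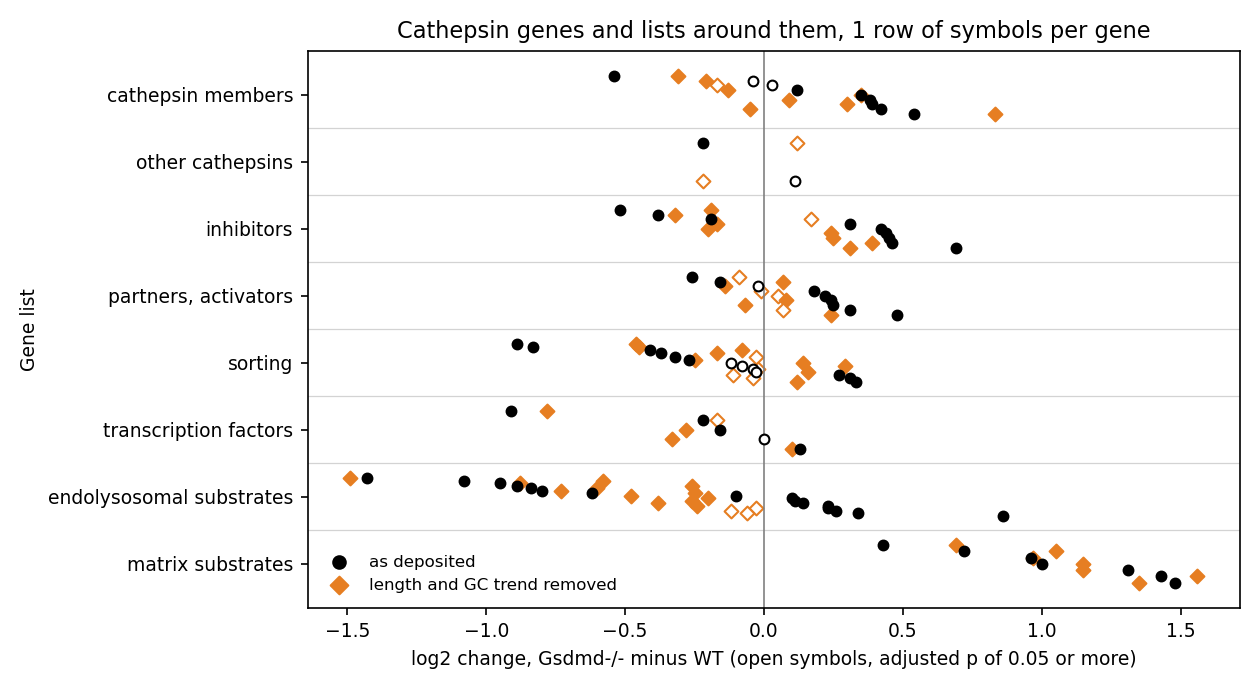
Log2 change, Gsdmd-/- minus WT, of each tested gene of the cathepsin family and of the 7 lists around it, black circles as deposited and orange diamonds on the corrected scale, open where the adjusted p is 0.05 or more. All 7 matrix substrates lie right of 0 on both scales, and the lowest point as deposited is Tlr9, at -1.43.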

How the data were processed

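Macrophage RNA of 3 Gsdmd-/- and 3 WT samples was sequenced on a BGISEQ-500, per the labels' protocols. The submitters' processing notes list Bowtie2 2.2.5 and the mouse build GRCm38.p6, with no roles. No source used here gives the quantifier, the annotation or the strand setting. The deposited tables hold 1 value per gene with no stated unit, read as FPKM because sums differ between samples and low values step with transcript length. Implied fragment numbers assume GENCODE M21 lengths and are approximate.

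Tests used limma 3.58.1 (trend and robust, R 4.3.3) for genes reaching 1 FPKM in 3 or more of the 6 samples, on log2(FPKM + 1), which understates changes of low genes, with Benjamini-Hochberg adjustment over all 10005 genes. The corrected scale leaves out a length and GC trend, fitted as splines for each sample (5 degrees of freedom each) over the 9852 genes with GENCODE M21 transcripts (98.5%). This trend held 51.3% of the variance of log2 changes. The steps were tested on simulated data. The members, lists and tests were chosen with earlier results of these data known. Besides the 10 members and Gsdmd, the genes named are up to 4 per list, taken by smallest p, and the 3 most like the member with the largest change. Tfeb, Cstb, Cd74, Ctsg, Ctsw, Tlr7, Tlr13, Ciita, Unc93b1, Serpinb6b, Serpinb8, Serpinb9 and the overlapping, marker and shared genes were added after their values were seen. Sequences came from RefSeq and GENCODE tables, and coordinates are 1-based.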

Additional observations from a re-analysis of the deposited data

How the results depend on the processing

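The counts of cathepsin genes that rose and fell, 6 and 1 as deposited, were 2 and 3 after quantile normalization. The number that fell was 3 in TPM, 2 with median ratio scaling and 4 on the scale corrected for length and GC, alone or with a replicate block. Leaving out 1 sample gave 6 that rose, and 1 or 2 that fell, the 2 being Ctsc and Ctss without WT replicate 2. The difference in summed share, 0.343 percentage points, was 0.156 after quantile normalization, 0.825 after length and GC correction and 0.339 to 0.350 with 1 sample left out. Ctsb and Ctsa rose and Ctsc fell under all 16 alternatives.

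Directions turned for these log2 changes, with no cause tested. In TPM, Ctsh was -0.10, Ctsk -0.17, Ctsf -0.06, Lgmn -0.04 and Tfec -0.09. After quantile normalization, Ctsl was -0.10, Ctsz -0.00, Cst3 -0.01 and Lgmn -0.26. After length and GC correction, and equally with the replicate block added, Ctsh was -0.13, Ctsk -0.17, Ctsz -0.05, Ctso 0.12, Ctsf -0.22, Cst3 -0.20, Lgmn -0.01 and Dpp7 -0.07. Ctsk ran from -0.04 to 0.14 with 1 sample left out. Of the shares of the summed level (differences in percentage points), Ctsa was -0.191 and Ctsz -2.12 after length and GC correction, Ctsk 0.000645 and Ctsz -0.379 after quantile normalization, and Ctsa ran from -0.0182 to 0.0303 with 1 sample left out.

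No source used here says whether equal replicate numbers mark pairs. Deviations from the group means of same-numbered samples correlated at -0.0818, 0.132 and 0.0143, and not every sample was closest to its own number. With 3 samples per group these values cannot settle whether samples were paired. With the replicate block as the only change, 6 cathepsin genes rose and 1 fell, and 4095 and 3706 genes in all, beside 4059 and 3693.

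The low level of Ctse and the 3 samples per group limit the precision. Whether samples differ by RNA quality was not tested.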
